A study of Mus musculus with 6 samples.

Results

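Open chromatin was described at 6 genes of the tumour necrosis factor system, the ligands Tnf, Lta and Ltb and the receptors Tnfrsf1a, Tnfrsf1b and Ltbr, out of 21900 protein-coding genes of the mouse gene table. A peak belonged to a gene when it overlapped the GRCm38 gene body extended by 10 kb on each side. Peaks of the 6 libraries that overlapped or touched were merged into 92757 regions, and 32 of these lay in the 6 gene windows. Of the 32, 27 had a peak in all 6 libraries. None of the 27 differed between the groups of mice past the threshold of the test in fold enrichment or in covered length. Of all 68712 regions with a peak in all 6 libraries, 0 passed by fold enrichment and 148 (0.215%) by covered length. The start sites of these genes that lay in a peak in 1 library did so in all 6.

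The DTR group held 3 libraries of blood monocytes from PF4cre-iDTR mice given diphtheria toxin, described in the labels as thrombocytopenic. The WT group held 3 libraries of blood monocytes from wild-type mice given the same toxin, so both groups carry the toxin exposure. In PF4cre-iDTR mice the Pf4 promoter drives Cre in megakaryocytes, the cells that make platelets. Cre switches on a receptor through which diphtheria toxin kills the cell. Cre activity in other blood cells was not tested here. No group with the transgenes and without toxin was analysed here. The labels give no age, sex, strain background, toxin dose or time, and do not say whether a library came from 1 animal or from pooled animals, so p-values measure the spread between these libraries only. Each library was an ATAC-seq library from an aliquot of 50000 cells. In this assay the Tn5 transposase cuts and tags DNA where chromatin is accessible. In such bulk samples, more open cells and more accessibility per cell cannot be told apart.

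The deposited lists held 84029, 81567 and 81579 peaks in the DTR libraries, against 78162, 77867 and 80475 in the WT libraries. They covered 48.1 to 50.1 Mb in the DTR libraries and 43.8 to 47.7 Mb in the WT libraries. All DTR lists were thus longer and covered more of the genome than any WT list, which bears on every count and length below. The lists carry no read counts, so sequencing depth is unknown. Among the genes used as cell type markers, all 10 monocyte genes had a peak within 1 kb of the gene body in all 6 libraries. Markers of other blood cells had peaks too, at 6 of 6 B cell, 4 of 6 T cell, 3 of 4 NK cell, 4 of 6 neutrophil, 4 of 6 megakaryocyte and platelet, and 3 of 4 erythroid genes in all 6 libraries, while Cd8a, Ncr1, Ppbp and Hba-a1 had none in any library. The summed covered length of the neutrophil genes was 5146 to 5419 bp in DTR libraries and 4659 to 4773 bp in WT libraries, that of the monocyte genes 35028 to 36285 bp in DTR libraries and 30987 to 34891 bp in WT libraries, and that of the megakaryocyte and platelet genes 4302 to 4461 bp in DTR libraries and 3919 to 4267 bp in WT libraries. The groups did not overlap in these 3 lists, as they did not in the total length covered. All gene windows, here and below, are the 16831 protein-coding gene windows extended by 10 kb with a peak in at least 1 library. Of these, 19.3% were separated in covered length with DTR above WT and 0.85% with DTR below. No such share was computed for sums over a list of genes within 1 kb. For the other lists the summed covered length was 4804 to 5859 bp in DTR and 4930 to 5449 bp in WT libraries (B cell). T cell genes had 2851 to 3544 bp in DTR and 2970 to 3713 bp in WT libraries. NK cell genes had 2473 to 2814 bp in DTR and 2271 to 2819 bp in WT libraries. Erythroid genes had 2446 to 2528 bp in DTR and 2290 to 2524 bp in WT libraries. The part of other cells in the values below was not tested.

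Tumour necrosis factor is a trimeric cytokine that monocytes and macrophages release when they meet microbial products. Its gene Tnf sits between Lta, which encodes lymphotoxin alpha, and Ltb, which encodes lymphotoxin beta, in the major histocompatibility complex. Lymphotoxin alpha forms a soluble trimer that binds the TNF receptors, and together with lymphotoxin beta a membrane-bound trimer that binds the lymphotoxin beta receptor. Tnfrsf1a encodes TNFR1, which is widely expressed and can signal through NF-kB or to cell death. Tnfrsf1b encodes TNFR2, which lacks a death domain and is found mainly on blood and endothelial cells. Ltbr encodes the lymphotoxin beta receptor, which signals to NF-kB through TRAF proteins and is expressed by stromal and myeloid cells. Myeloid cells commonly hold the Tnf promoter in an accessible state before they are stimulated.

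The sequences upstream of 4 start sites are shown because the libraries divided them in the same way. The Tnf start lay in a peak and the start of its neighbour Ltb lay in none, and among the 4 open starts that of Ltbr had the highest fold enrichment and that of Tnfrsf1a the lowest. Each sequence is the 250 bases before the RefSeq start site in GRCm38.p6, written 5′ to 3′ in the direction of the gene. Capitals mark matches, on either strand, to TATAAA (the TATA box), to an NF-kB-like motif (GGG and CC with 5 bases between them) or to GAGGAA (a core bound by ETS factors such as PU.1). Tnf is at chr17:35202008-35202257 on the minus strand, Ltb at chr17:35194257-35194506 on the plus strand, Tnfrsf1a at chr6:125349473-125349722 on the plus strand and Ltbr at chr6:125313886-125314135 on the minus strand.
Tnf: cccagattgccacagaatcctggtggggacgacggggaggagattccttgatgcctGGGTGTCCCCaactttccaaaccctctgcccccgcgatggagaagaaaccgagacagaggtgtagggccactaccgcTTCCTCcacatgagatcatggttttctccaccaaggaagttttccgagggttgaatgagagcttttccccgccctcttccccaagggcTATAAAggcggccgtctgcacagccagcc
Ltb: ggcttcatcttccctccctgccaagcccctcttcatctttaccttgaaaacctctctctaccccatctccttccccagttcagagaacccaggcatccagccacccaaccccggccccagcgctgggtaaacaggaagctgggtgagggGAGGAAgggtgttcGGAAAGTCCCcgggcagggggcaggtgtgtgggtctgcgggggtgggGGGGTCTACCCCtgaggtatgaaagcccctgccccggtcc
Tnfrsf1a: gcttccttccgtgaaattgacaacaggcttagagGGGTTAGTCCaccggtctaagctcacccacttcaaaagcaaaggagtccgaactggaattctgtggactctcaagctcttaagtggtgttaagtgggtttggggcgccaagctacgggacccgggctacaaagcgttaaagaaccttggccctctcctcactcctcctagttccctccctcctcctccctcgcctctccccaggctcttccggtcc
Ltbr: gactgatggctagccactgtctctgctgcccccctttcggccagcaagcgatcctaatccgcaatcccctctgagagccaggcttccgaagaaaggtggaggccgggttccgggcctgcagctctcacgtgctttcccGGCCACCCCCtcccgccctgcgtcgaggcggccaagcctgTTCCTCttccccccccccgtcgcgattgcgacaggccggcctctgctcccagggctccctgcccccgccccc

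In the Tnf sequence a TATA box began 29 bases before the start, an ETS core on the reverse strand 117 bases before it and an NF-kB-like match 194 bases before it. The Ltb sequence held an NF-kB-like match 87 bases before the start, overlapping matches at 40, 39 and 38 bases, and an ETS core at 101 bases. Tnfrsf1a had 1 match, NF-kB-like, at 216 bases, and Ltbr an NF-kB-like match at 112 bases and an ETS core on the reverse strand at 72 bases. Such matches are common. Of 17492 mouse promoters of the same length, 12.4% held TATAAA, 51.1% held the NF-kB-like motif and 22.1% held GAGGAA, so the matches describe letters and not sites in use. GC content was 57.6% for Tnf, 58.4% for Lta, 63.2% for Ltb, 55.6% for Tnfrsf1a, 62.8% for Tnfrsf1b and 69.2% for Ltbr, against a median of 55.2% over all promoters. The GC content of the Ltb sequence was above that of Tnf. The ratio of observed to expected CpG dinucleotides was 0.485 for Tnf, 0.481 for Tnfrsf1a, 0.487 for Tnfrsf1b and 0.645 for Ltbr, whose starts lay in a peak, and 0.434 for Lta and 0.241 for Ltb, whose starts lay in none, beside a median of 0.536. By this ratio the 4 genes with a peak at the start were above the other 2, a description of 6 genes.

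A peak covered the start site of Tnf, Tnfrsf1a, Tnfrsf1b and Ltbr in all 6 libraries, and no peak covered that of Lta or Ltb in any library. Over all protein-coding genes with a RefSeq promoter, 9165 of 17492 starts (52.4%) lay in a peak in all 6 libraries and 7753 (44.3%) in none. The 250 bases upstream of Tnf, Tnfrsf1a and Ltbr were covered to the last base in every library, and those of Tnfrsf1b in all but WT 2, where 242 of 250 bases were covered. The nearest peak to the Ltb start began 887 to 893 bp into the gene in the 6 libraries, and the nearest to the Lta start was the Tnf peak, 2786 to 3015 bp downstream.

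**Figure D1:**
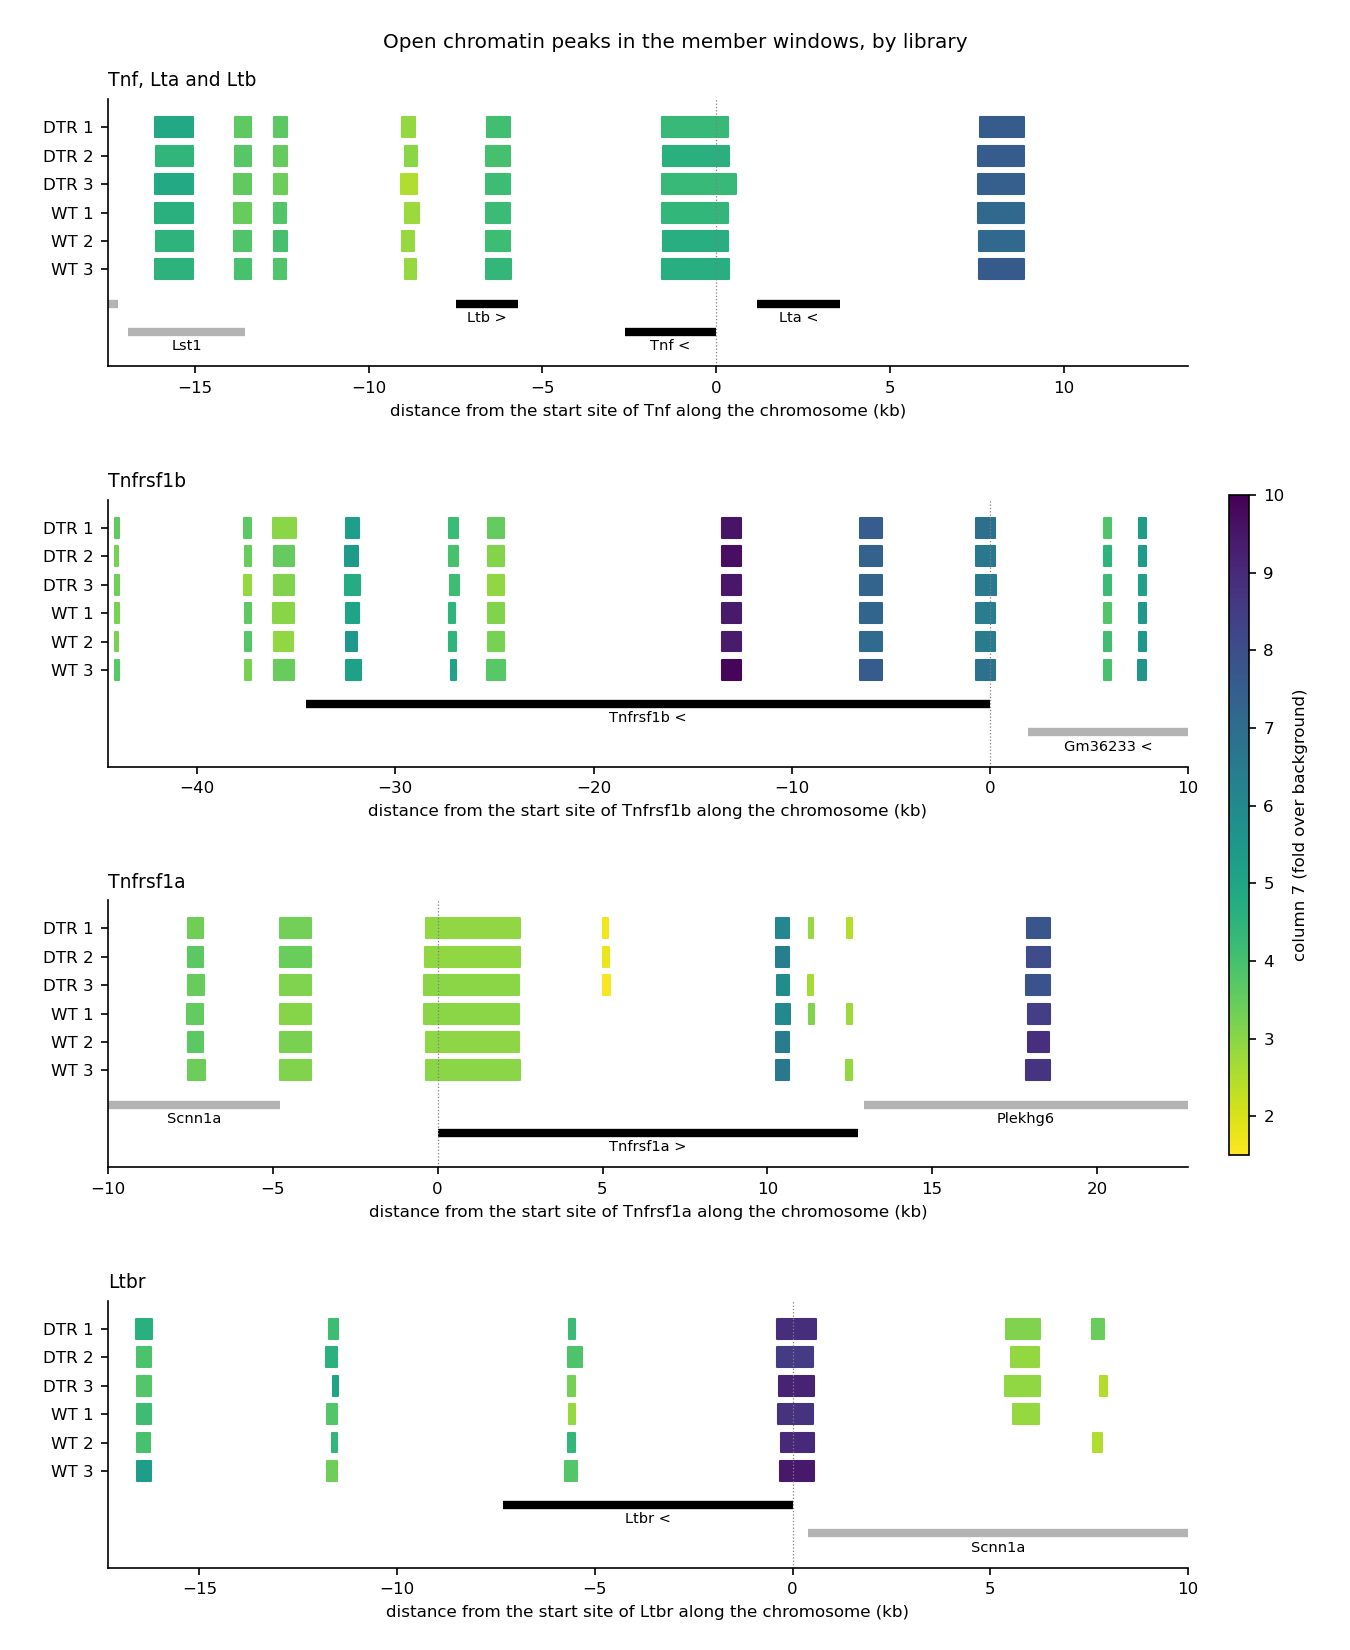
Peaks of each library (rows, DTR above WT) in the 4 merged windows, against distance from a start site along the chromosome in kb. Colour gives the fold enrichment of the peak (column 7), black bars the 6 genes with < or > for their direction, grey bars neighbouring genes. The TNF locus has the same 7 regions in every row, and the rows differ at faint or narrow peaks near Tnfrsf1a and Ltbr.

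At the TNF locus all 7 merged regions were present in all 6 libraries. The windows of Tnf, Lta and Ltb held 5, 4 and 6 peaks in every library, and they overlap, since Tnf shared 4 of its peaks with Lta and 4 with Ltb. The values of the 3 ligand genes are therefore not independent of each other. The region over the Tnf start and the first part of its body spanned chr17:35200446-35202565. Its fold enrichment, the authors' column 7, which in broad peak lists is the mean enrichment over the caller's background along the peak, was 4.28, 4.62 and 4.29 in DTR libraries and 4.40, 4.66 and 4.67 in WT libraries. The groups overlapped, and the log2 difference was -0.06 (95% interval -0.20 to 0.08, limma adjusted p = 0.807). The peak covered 1904, 1897 and 2106 bp in DTR libraries and 1904, 1873 and 1902 bp in WT libraries, DTR 3 alone being longer than the others.

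The strongest peak of the locus lay apart from the genes, at chr17:35209544-35210852, 4.8 kb upstream of Lta and 8.19 kb upstream of Tnf. Its fold enrichment was 7.57, 7.55 and 7.47 in DTR libraries and 7.15, 7.17 and 7.62 in WT libraries. WT 3 exceeded every DTR library, so the groups overlapped, and the log2 difference was 0.04 (95% interval -0.09 to 0.17, limma adjusted p = 0.856). In each library this region ranked between the 72.4 and 76.9 percentile of all its peaks, while the Tnf start peak had a lower fold enrichment. Within Ltb, the region at chr17:35195394-35196094 had 4.07, 4.004 and 4.16 in DTR libraries and 4.21, 4.16 and 4.36 in WT libraries (log2 difference -0.06, 95% interval -0.18 to 0.07, limma adjusted p = 0.789).

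The other 4 regions of the locus lay upstream of Ltb, 2 of them over the neighbouring gene Lst1, a leukocyte transcript of the same complex. The region at chr17:35185870-35186954, 8.1 kb upstream of Ltb, had 4.89, 4.43 and 4.87 in DTR libraries and 4.61, 4.51 and 4.53 in WT libraries, which overlapped. The region at chr17:35189284-35189644, 5.0 kb upstream of Ltb, had 3.66, 3.50 and 3.41 in DTR libraries and 3.81, 3.996 and 3.83 in WT libraries. Here every DTR value was below every WT value, with a log2 difference of -0.14 (95% interval -0.27 to -0.00), an unadjusted p of 0.046 and a limma adjusted p of 0.460. The remaining pair, 6.1 and 1.3 kb upstream of Ltb, differed by -0.05 and -0.02 on the log2 scale, with overlapping groups.

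Tnfrsf1b had the most peaks of the 6 genes, 11 in every library, in 11 regions that were all shared by the 6 libraries. Its window was also the longest, 54.5 kb against 21.8 to 32.8 kb for the others. Per 10 kb it held 2.02 peaks, against 2.75 for Ltb, 2.21 for Tnf and 1.78 for Lta. The means were 2.14 in DTR and 1.83 in WT libraries for Tnfrsf1a, and 2.07 in DTR and 1.71 in WT libraries for Ltbr. Its start site peak, chr4:145246170-145247158, had a fold enrichment of 6.89, 6.56 and 6.51 in DTR libraries and 6.43, 6.51 and 6.81 in WT libraries. The groups overlapped, with a log2 difference of 0.02 (95% interval -0.12 to 0.15, limma adjusted p = 0.958). A stronger peak stood within the gene at chr4:145233348-145234330, 13.0 kb downstream of the start, with 9.55, 9.68 and 9.49 in DTR libraries and 9.42, 9.38 and 9.89 in WT libraries. That region, between the 89.6 and 91.6 percentile of each list, had the highest mean fold enrichment of the 32, and its log2 difference was 0.00 (95% interval -0.13 to 0.13, limma adjusted p = 0.994). The next, at chr4:145240303-145241433 and 6.0 kb into the gene, had 7.54, 7.34 and 7.29 in DTR libraries and 7.26, 7.09 and 7.56 in WT libraries (log2 difference 0.02, limma adjusted p = 0.951).

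A narrow region of the Tnfrsf1b body, chr4:145219587-145220062, 27.0 kb downstream of the start, differed most in covered length among those shared by all libraries. Its peak covered 425, 433 and 438 bp in DTR libraries and 301, 311 and 226 bp in WT libraries, a log2 difference of 0.64 (95% interval 0.30 to 0.98) with an unadjusted p of 0.004 and a limma adjusted p of 0.333. Its fold enrichment went the other way, with 4.21, 3.99 and 4.14 in DTR libraries and 4.47, 4.46 and 5.05 in WT libraries (log2 difference -0.18, 95% interval -0.34 to -0.02, limma adjusted p = 0.424). The groups did not overlap in either measure, with wider and lower peaks in the DTR libraries, and neither difference passed the threshold over all regions. Width and fold enrichment are not independent, since fold enrichment is a mean along the peak. Upstream of the gene, at chr4:145254360-145254772, the DTR libraries had 5.34, 5.36 and 5.21 and the WT libraries 5.48, 5.51 and 5.57, again with every DTR value lower (log2 difference -0.06, limma adjusted p = 0.777). At the 3′ end of the gene, chr4:145210697-145211866, the values were 2.97, 3.50 and 3.11 in DTR libraries and 2.998, 2.91 and 3.47 in WT libraries (log2 difference 0.03, limma adjusted p = 0.944). The other 5 regions overlapped between groups in fold enrichment.

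Tnfrsf1a, the receptor with the death domain, had the widest start site peak and the lowest in fold enrichment. Fold enrichment is a mean along the peak, so it is not independent of the width. This start site peak ran over chr6:125349317-125352211 and covered 2850, 2881 and 2884 bp in DTR libraries and 2874, 2830 and 2845 bp in WT libraries. Its fold enrichment was 2.90, 2.90 and 2.97 in DTR libraries and 2.97, 2.95 and 2.98 in WT libraries (log2 difference -0.02, 95% interval -0.14 to 0.10, limma adjusted p = 0.934), between the 10.1 and 12.1 percentile of each list.

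The strongest peak of the Tnfrsf1a window lay 18.2 kb downstream of its start within the next gene, Plekhg6, at chr6:125367583-125368310. Its fold enrichment was 7.74, 8.05 and 7.83 in DTR libraries and 8.45, 8.85 and 8.73 in WT libraries. Every DTR library was below every WT library, with a log2 difference of -0.14 (95% interval -0.27 to -0.01), an unadjusted p of 0.036 and a limma adjusted p of 0.428. The covered length went the other way in mean, 712, 691 and 727 bp in DTR libraries and 666, 652 and 703 bp in WT libraries. Within Tnfrsf1a, 10.5 kb from the start, the region at chr6:125359989-125360397 had 6.11, 6.41 and 5.90 in DTR libraries and 6.01, 6.51 and 6.61 in WT libraries, which overlapped (log2 difference -0.05, limma adjusted p = 0.840). Upstream of the gene, at chr6:125342119-125342651 and chr6:125344938-125345876, the log2 differences were -0.01 and 0.08, with overlapping groups.

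The Tnfrsf1a window also held 3 of the 5 regions that some libraries lacked. A region in the gene body, chr6:125354737-125354952, 5.1 kb downstream of the start, had a peak in all 3 DTR libraries and in 0 WT libraries. Of all merged regions, 0.82% had that pattern and 0.0992% the reverse. These peaks were 160, 173 and 210 bp wide with fold enrichments of 1.64, 1.74 and 1.60, between the 0.137 and 0.306 percentile of their lists. With a q-value of at most 1e-05 required only that of DTR 2 was left. With lists of equal length the region kept a peak in all 3 DTR libraries and in 0 WT libraries. A region at chr6:125360963-125361142 had a peak in DTR 1 (143 bp, fold enrichment 2.86), DTR 3 (148 bp, 2.66) and WT 1 (157 bp, 3.15). One at the 3′ end of the gene, chr6:125362108-125362293, had a peak in DTR 1 (155 bp, fold enrichment 2.44), WT 1 (150 bp, 2.73) and WT 3 (181 bp, 2.87). Neither followed the groups.

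The start site peak of Ltbr, chr6:125313488-125314465, also reached into Scnn1a, a sodium channel gene next to it. Its fold enrichment was 8.87, 8.51 and 9.17 in DTR libraries and 8.76, 9.05 and 9.45 in WT libraries, the highest of the 4 open starts. The groups overlapped, with a log2 difference of -0.04 (95% interval -0.18 to 0.10, limma adjusted p = 0.890). In the order Ltbr, Tnfrsf1b, Tnf and Tnfrsf1a, the 6 values of each open start lay above those of the next. This order takes no account of peak width. Fold enrichment at other Ltbr regions varied more between libraries. At chr6:125302096-125302397, 11.6 kb downstream of the start, it was 4.17, 4.56 and 5.04 in DTR libraries and 3.76, 4.42 and 3.38 in WT libraries (log2 difference 0.26, 95% interval -0.01 to 0.52, limma adjusted p = 0.479). At chr6:125297292-125297672 it was 4.62, 3.90 and 3.77 in DTR libraries and 4.15, 3.99 and 5.31 in WT libraries, and within the gene at chr6:125308134-125308566 it was 4.25, 3.87 and 3.26 in DTR libraries and 2.85, 4.36 and 3.78 in WT libraries. Both pairs of groups overlapped.

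Within Scnn1a, 5.8 kb upstream of Ltbr, the region at chr6:125319268-125320151 had a peak in all 3 DTR libraries and in WT 1. The covered length there was 869, 701 and 884 bp in DTR libraries and 670, 0 and 0 bp in WT libraries. These peaks were weak, with fold enrichments of 3.12, 2.87 and 2.92 in DTR libraries and 2.84 in WT 1. At a q-value of at most 1e-05 none was left, and with lists of equal length those of DTR 1, DTR 3 and WT 1 were left. A region at chr6:125321446-125321844 had a peak in DTR 1 (311 bp, fold enrichment 3.43), DTR 3 (188 bp, 2.49) and WT 2 (219 bp, 2.504).

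**Figure D2:**
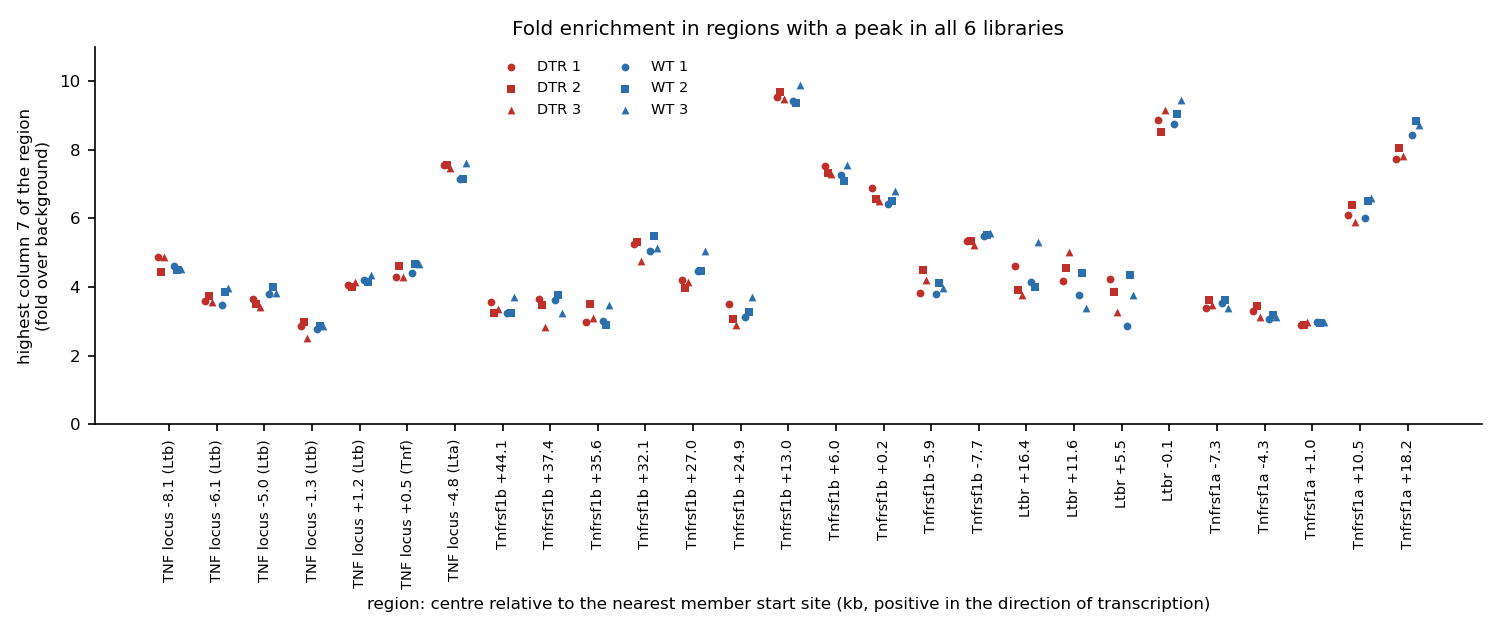
Fold enrichment (column 7, linear axis) in each library for the 27 regions with a peak in all 6, DTR libraries in red left of WT libraries in blue. Regions are named by the kb between their centre and the nearest of the 6 start sites. The regions differ far more from each other than the groups differ within a region.

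Over the union of the 6 windows, 145651 bp in 4 stretches, the DTR libraries had 32, 29 and 31 peaks and the WT libraries 30, 28 and 28. The DTR mean was 30.7 ± 1.53 and the WT mean 28.7 ± 1.15 (SD, n = 3 each; exact two-sided permutation p = 0.2, where 3 against 3 cannot go below 0.1). Peaks covered 22120, 21441 and 22285 bp in DTR libraries, against 21319, 19961 and 20606 bp in WT libraries. Every DTR library covered more than every WT library, by 1320 bp on average (21949 ± 447 bp against 20629 ± 679 bp, SD, n = 3 each; exact permutation p = 0.1, the smallest this design allows). The difference was 1024 bp with lists of equal length and 1699 bp with 20 kb windows, where the groups overlapped (exact permutation p = 0.2 in both), and 692 bp with a q-value of at most 1e-05 and 602 bp with 5 kb windows, where they did not. Median peak width was 463, 659 and 480 bp in DTR libraries and 582, 530.5 and 600.0 bp in WT libraries (exact permutation p = 0.7). Median fold enrichment was 3.95, 3.99 and 3.77 in DTR libraries and 3.80, 4.26 and 4.16 in WT libraries (exact permutation p = 0.3). Neither width nor fold enrichment separated the groups.

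Gene by gene, the number of peaks was the same in all 6 libraries for Tnf, Lta, Ltb and Tnfrsf1b, as it was for 37.6% of 16831 gene windows with a peak. The Tnfrsf1a window held 8, 6 and 7 peaks in DTR libraries and 7, 5 and 6 in WT libraries, and the Ltbr window 6, 5 and 6 in DTR libraries and 5, 5 and 4 in WT libraries. In 0 of 6 windows did the groups not overlap in peak number, against 3.34% of all gene windows (2.99% with DTR above WT and 0.345% with DTR below). In covered length they did not overlap in 1 of 6, that of Ltbr, against 20.1% of all gene windows (19.3% with DTR above WT and 0.85% with DTR below). That is close to the background share. In median width the count was 0 of 6, against 13.5% (10.7% and 2.78% in the same order), and in median fold enrichment 1 of 6, that of Ltb with DTR below WT, against 13.7% (7.86% and 5.86%). The shares for width and fold enrichment are over the 16247 gene windows with a peak in all 6 libraries.

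The Ltbr window covered 2909, 2601 and 2646 bp in DTR libraries, against 2337, 1717 and 1764 bp in WT libraries. The difference of 779 bp (2719 ± 166 bp in DTR, 1939 ± 345 bp in WT, SD, n = 3 each) had an exact permutation p of 0.1. It lay mostly at the weak region within Scnn1a. With all lists cut to the length of the shortest the difference was 483 bp, with a q-value of at most 1e-05 it was 275 bp, and with 5 kb on each side of the gene it was 75.7 bp, with overlapping groups in all 3 settings. The median fold enrichment of the Ltb window was 3.86, 3.88 and 3.86 in DTR libraries and 4.01, 4.08 and 4.16 in WT libraries, with every DTR value lower (3.87 ± 0.00769 in DTR, 4.08 ± 0.0763 in WT, SD, n = 3 each; exact permutation p = 0.1). With 20 kb on each side of the gene the difference was -0.115, against -0.214 with 10 kb, and the groups overlapped (exact permutation p = 0.3).

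For the other 5 genes the covered length overlapped between groups. The Tnf window covered 4464, 4510 and 4855 bp in DTR libraries and 4548, 4485 and 4506 bp in WT libraries, and the Lta window 3991, 4110 and 4344 bp in DTR libraries and 4170, 4013 and 4111 bp in WT libraries. For Ltb it was 4836, 4826 and 5174 bp in DTR libraries and 4900, 4816 and 4814 bp in WT libraries. In all 3 ligand windows DTR 3 was the highest, and without it the DTR mean was below the WT mean, by differences of -26 bp for Tnf, -47.5 bp for Lta and -12.3 bp for Ltb. Tnfrsf1a covered 5814, 5543 and 5759 bp in DTR libraries and 5673, 5279 and 5559 bp in WT libraries, and Tnfrsf1b 7320, 7169 and 7403 bp in DTR libraries and 7112, 6852 and 7175 bp in WT libraries. Exact permutation p-values for these 5 genes lay between 0.2 and 0.9. Over all gene windows the median difference was 113 bp in the same direction, and 82.4% of windows had a higher DTR mean.

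As a share of its window, Ltb was the most covered at 22.7% in DTR and 22.2% in WT libraries. Tnf followed with 20.4% in DTR and 19.9% in WT, Lta with 18.5% in DTR and 18.3% in WT, Tnfrsf1a with 17.4% in DTR and 16.8% in WT, and Tnfrsf1b with 13.4% in DTR and 12.9% in WT. Ltbr was the least covered with 9.95% in DTR and 7.10% in WT. The order was the same in both groups.

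**Figure D3:**
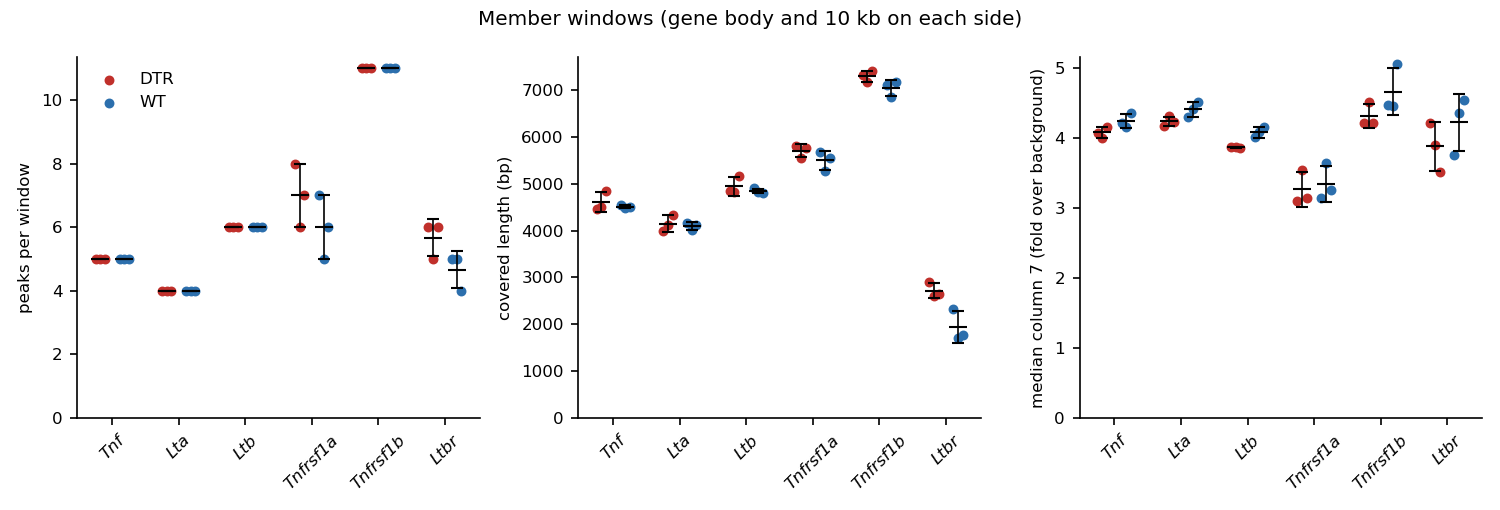
Peak number, covered length in bp and median fold enrichment (column 7) per library in the window of each gene, DTR left of WT; points are libraries, bars the mean ± SD (n = 3 each). The Ltbr covered length and the Ltb median fold enrichment are the values at which the groups do not overlap.

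Region by region, limma was fitted on log2 values over the 68712 regions with a peak in all 6 libraries (74.1% of the merged regions), which include 27 of the 32 regions at these genes. A fit over such regions leaves out those that only some libraries have, which are given above. By fold enrichment 0 of the 27 passed an adjusted p of 0.05, against 0% of all regions, and the smallest adjusted p among them was 0.424. At an unadjusted p under 0.05 there were 3, all lower in DTR libraries, against 10.6% of all regions (7.88% higher and 2.72% lower). These were the regions 5.0 kb upstream of Ltb, 27.0 kb into Tnfrsf1b and over Plekhg6. With each library centred on its median the unadjusted count at these genes was again 3, and over all regions 3856 (5.61%) were higher and 3650 (5.31%) lower, against 5414 higher and 1868 lower without centring. By covered length 0 of the 27 passed, against 0.215% of all regions (0.192% higher and 0.0233% lower), with a smallest adjusted p of 0.333 and 1 region, that 27.0 kb into Tnfrsf1b, under an unadjusted 0.05, against 7.45% (6.52% higher and 0.937% lower).

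The median log2 difference in fold enrichment over the 27 regions was -0.02, with a range of -0.18 to 0.26, beside a median of 0.01 over all shared regions, the central 95% of which lay between -0.22 and 0.32. In 11 of the 27 the DTR mean was higher, against 55.3% of all shared regions. The groups did not overlap in 4 of the 27, all with DTR below WT, against 15.6% of all shared regions (10.4% with DTR above and 5.15% with DTR below). In covered length they did not overlap in 1 of the 27, with DTR above, against 14.8% (13% above and 1.87% below), and the median log2 difference was 0.01, beside 0.04 over all shared regions. The 95% intervals of the 27 differences in fold enrichment reached from -0.42 at the lowest to 0.52 at the highest, both at Ltbr.

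**Figure D4:**
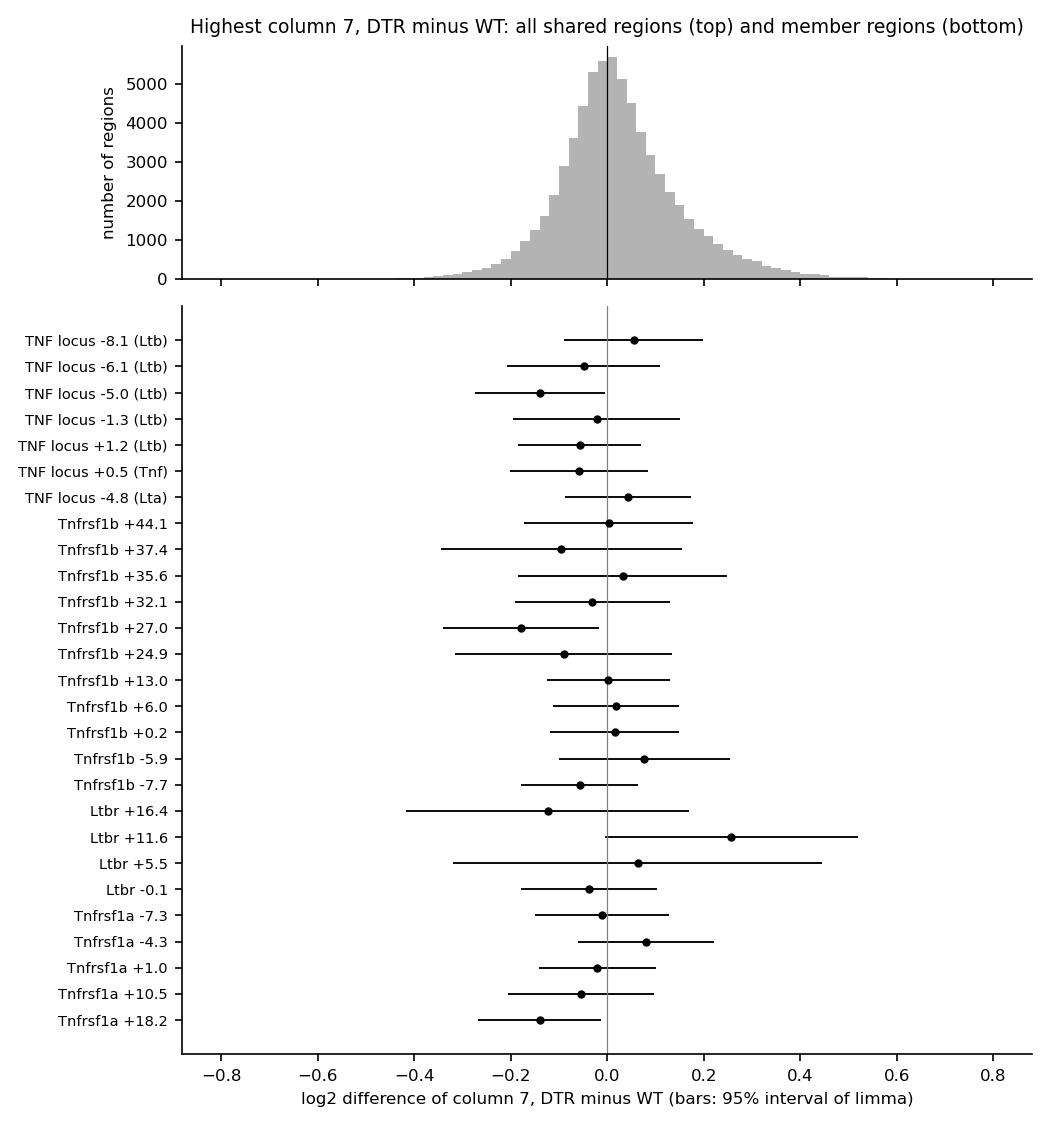
Log2 difference in fold enrichment (column 7), DTR minus WT, as a histogram over the 68712 shared regions (top) and as points with 95% limma intervals for the 27 regions at the 6 genes (bottom). The points lie between -0.18 and 0.26, within the bulk of the histogram.

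The wider pathway was read from 72 other genes in 5 lists, of which 71 had a peak in all 6 libraries. They held 392 regions, 315 of them in all 6 libraries. By fold enrichment 0 of the 315 passed the adjusted threshold, against 0% of all shared regions. At an unadjusted p under 0.05, 18 (5.71%) were higher and 14 (4.44%) lower in DTR libraries, against 7.88% higher and 2.72% lower over all shared regions. The median log2 difference over the 315 was 0.00. In covered length of the gene window the groups did not overlap for 12 of 72 genes with DTR above WT and for 1 with DTR below, shares to be read against 19.3% and 0.85% of all gene windows.

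Among 19 ligands and receptors of the superfamily, 5 windows were separated in covered length with DTR above WT and 1, that of Tnfrsf26, with DTR below. The shares over all gene windows were 19.3% and 0.85%. The 5 were Tnfsf12 (TWEAK), Tnfsf13 (APRIL), Tnfrsf10b (the mouse TRAIL receptor), Tnfrsf13c (the BAFF receptor) and Tnfrsf14 (HVEM). Their differences were 78.3, 76.3, 290, 181 and 797 bp, beside a median of 113 bp over all gene windows. The windows of Tnfsf12 and Tnfsf13 share a region, so they are not independent. The mean log2 difference in fold enrichment was 0.17 for Tnfsf15, a cytokine that binds death receptor DR3, -0.14 for Tnfsf13b, which encodes the B cell survival factor BAFF, and 0.10 for Tnfsf10, which encodes TRAIL. Among 15 genes of TNF processing and mRNA decay 3 windows were separated, all DTR above WT, against 19.3% of all gene windows. They were those of Rhbdf1, Sppl2a, an intramembrane protease that cleaves TNF, and Zc3h12a, which encodes the RNase regnase-1. Their covered lengths differed by 936, 62.3 and 717 bp. The largest mean differences in fold enrichment in that list were -0.12 for Rhbdf1, an inactive rhomboid that carries the sheddase of TNF, -0.11 for Rc3h1, which encodes the RNA-binding protein roquin, and 0.11 for Timp3, an inhibitor of that sheddase. None of these genes had a region past the threshold.

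Among 22 genes of the TNFR1 signalling complex, 3 windows were separated with DTR above WT, against 19.3% of all gene windows. They were those of Rnf31 and Rbck1, subunits of the linear ubiquitin ligase, and Chuk, the kinase IKK-alpha. The mean difference of Rbck1 in fold enrichment was -0.11. In covered length 1 of the 315 pathway regions (0.317%) passed the threshold, against 0.215% of all shared regions, a share near the background. It lay in this list, at chr9:7846691-7848049 over Birc3, an inhibitor of apoptosis that ubiquitinates RIPK1, and within the window of its neighbour Birc2. The peak covered 1171, 1171 and 1314 bp in DTR libraries and 645, 644 and 701 bp in WT libraries, a log2 difference of 0.88 ± 0.0666 (SE, n = 3 each; 95% interval 0.71 to 1.05, limma adjusted p = 0.0279). Every DTR peak was longer than every WT peak. With any 1 library left out the adjusted p lay between 0.0520 and 0.0966, above the threshold. Its fold enrichment was 5.60, 6.17 and 5.46 in DTR libraries and 5.39, 6.76 and 6.21 in WT libraries, which overlapped (log2 difference -0.09, limma adjusted p = 0.821).

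In the cell death arm of 10 genes 1 window was separated with DTR above WT, against 19.3% of all gene windows. It was that of Diablo, which encodes a mitochondrial antagonist of the inhibitors of apoptosis. The mean differences in fold enrichment were 0.11 for Mlkl, the executor of necroptosis, and -0.10 for Casp8, the initiator caspase of death receptors. In the non-canonical NF-kB arm of 6 genes, through which the lymphotoxin beta receptor signals, 0 windows were separated, against the same 19.3% and 0.85% with DTR below. The mean differences in fold enrichment were -0.03 for Traf1, an adaptor of TNF receptors, and 0.03 each for Nfkb2 and Relb, the NF-kB subunits of this arm. None of these genes had a region past the threshold.

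The gene whose covered length over the 6 libraries was most like that of each member was taken from 16234 genes, with each log2 profile centred on its own mean. It was Rtcb for Tnf (root mean square difference 0.00909), P2ry14 for Lta (0.00603), Ppdpf for Ltb (0.00615), Ccl25 for Tnfrsf1a (0.00572) and Eppk1 for Tnfrsf1b (0.00595). These profiles were themselves nearly flat, with a root mean square of 0.0352 to 0.0456 around their means. The Ltbr profile varied more, 0.292, and its nearest gene was Sgce, at 0.0292. All of these likenesses are over the same 6 libraries, whose list lengths they share.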

How the data were processed

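The data are 6 broad peak lists, 1 per ATAC-seq library of mouse blood monocytes (3 DTR, 3 WT, grouped by sample title). ATAC-seq is the assay in the design text and sample titles, although the series title names histone modifications. MACS2, Bowtie2 2.4.4, Bowtie and fastp are listed in the submitters' processing notes. For parameters, any transposase shift and the build, nothing is stated there or in other sources used here. Scaffold names and chromosome lengths fit GRCm38. The deposited columns are a score, the fold enrichment (a ratio over background, column 7), and −log10 values of p and q (p-value, q-value), all the authors' own and not scaled between libraries. The deposited score is 10 times the −log10 q, and the smallest −log10 q per library was 1.01 to 1.03.

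Peaks were merged over libraries, and the highest column 7 and the covered bp per region were compared on the log2 scale with limma 3.58.1 in R 4.3.3 (Benjamini-Hochberg, threshold 0.05). The procedure was also run on simulated data, with planted differences in column 7 larger than those seen at the 6 genes. The outcome of that run is not reported here. For window values the test was an exact permutation of the group labels, two-sided, with 20 arrangements. Genes and promoters came from RefSeq tables (GRCm38.p6); all 6 genes and all 72 pathway genes matched. No exon annotation was used, so exon, intron and UTR are not given. Pairs of libraries shared 0.693% to 1.11% of identical peaks, so none was a copy of another.

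The 6 genes, the lists and the tests were chosen with earlier results of these data known. By rule the text gives every merged region at the 6 genes by value or count, in full those at a gene end, the strongest 2 per locus and those missing in a library; regions whose groups did not overlap were named after their values were seen. Per pathway list up to 3 genes are named, by a region past the threshold and then by mean difference in column 7, and genes with separated windows were named after their values were seen. Some genes the rules would name are not reported here. Alternatives were other windows (5 and 20 kb), a q-value of at most 1e-05, lists of equal length, 50% overlap, median centring, length-weighted means, limma-trend, the replicate block and leaving out each library.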

Additional observations from a re-analysis of the deposited data

How the results depend on the processing

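Of 529 alternative values for 46 results, 489 kept their direction, their side of the threshold and, for counts, their size within 1.5 times. For window values the side of the threshold was fixed in advance, since the exact p cannot fall below 0.1. Some settings also leave the difference at a region unchanged by design. The tally is therefore a description and not a measure of stability. The count of genes whose groups did not overlap in covered length was 1, and it was 0 with a q-value of at most 1e-05, 0 with lists of equal length, and 1 to 3 with 1 library left out (3 without DTR 2, 2 without WT 1 or WT 3). With 5 kb windows it was 1 again, Tnfrsf1b in place of Ltbr. The count of all shared regions called by covered length was 148, and 27 (without DTR 3) to 487 (without WT 1) with 1 library left out. In the fit with the replicate block it was 0, and the Birc3 region had an adjusted p of 0.289; the same-numbered libraries are not said to be paired, and their deviations correlated at 0.00251, 0.0736 and -0.0316. With the block the DTR minus WT difference in covered length over the 6 windows was 1320 bp (exact sign-flip p = 0.25, the smallest possible). Regions at the 6 genes called by either measure stayed at 0 in every setting run. By fold enrichment the count over all shared regions was 0 in every setting too. By covered length the region 27.0 kb into Tnfrsf1b had a limma adjusted p of 0.0603 without WT 3, against 0.333 with all libraries. The direction of some differences turned. For the DTR minus WT difference in median fold enrichment, Tnfrsf1a was -0.0838 and became 0.0403 at the stricter q-value and 0.00486 with 20 kb windows, Tnfrsf1b was -0.349 and became 0.0519 with 20 kb windows, and with 5 kb windows Lta was 0.0165 in place of -0.173 and Ltbr 0.631 in place of -0.344. The Tnfrsf1a difference in covered length was 202 bp and became -5.33 bp with 20 kb windows. With libraries centred on their medians, the Tnfrsf1b regions 13.0 kb and 6.0 kb into the gene and at its start became -0.0278, -0.0126 and -0.0146 on the log2 scale. With 1 library left out, the difference in covered length ranged from -26 to 169.5 bp for Tnf, -47.5 to 129 bp for Lta and -12.3 to 162 bp for Ltb, and that in Tnfrsf1a median fold enrichment from -0.224 to 0.0614. Log2 differences then ranged from -0.0357 to 0.110 for the 3′ end of Tnfrsf1b, -0.0119 to 0.0270 for the region 13.0 kb into it, -0.00395 to 0.0427 for that 6.0 kb into it, -0.00963 to 0.0401 for its start, and -0.212 to 0.00399 for the Ltbr region 16.4 kb from its start. The cause of these changes was not tested. The DTR lists are longer than the WT lists, the lists hold no counts, and 3 libraries against 3 cannot give an exact p below 0.1.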
